A study of Mus musculus with 4 samples.

Results

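The regions described here are stretches of messenger RNA in which methylated adenosine (N6-methyladenosine, m6A) was enriched and that lie in the 5' untranslated region (5' UTR), between the cap and the start codon. They were taken from 4 deposited peak lists of mouse embryonic stem cells as the peaks whose listed transcript class is 5' UTR or start codon, on chromosomes 1 to 19, X, Y or the mitochondrial genome. Peaks of the 4 lists were joined into 1 region where their exon blocks overlapped by 1 bp or more. This gave 2172 of 46417 peaks (4.68%), in 917 regions and 883 genes, where all peaks together formed 15487 regions in 9949 genes.

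The libraries came from stem cells labelled with the strain C57BL/6N, 2 of wild-type genotype (one titled control, the other wild type) and 2 labelled Mettl5-/-. The culture notes shared by all samples also describe embryoid body and neural differentiation, while the sample source is given as stem cells, and no sample is labelled as differentiated. Total RNA was broken to about 200 nucleotides, and fragments bound by an anti-m6A antibody were sequenced (MeRIP-seq). The labels do not say how many knockout clones or cultures the libraries stand for, so the spread between 2 libraries of a genotype may be technical. Mettl5 itself had no peak in any list, so the lists cannot check the genotype. Of 13 stem cell markers, 9 had a peak of any class in at least 1 list and 8 in all 4 lists. The same counts were 5 and 3 of 13 neural markers, 5 and 4 of 13 mesoderm and endoderm markers, 4 and 4 of 13 feeder fibroblast markers and, for primitive endoderm with trophoblast, 6 and 1 of 13 markers. A peak list gives no RNA level, so these counts do not measure how much of each transcript was present. Nanog had no peak in any list.

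Most m6A of messenger RNA is placed in the nucleus by a writer complex built on Mettl3 and Mettl14, within a short sequence context known as DRACH, and lies near stop codons and in 3' UTRs. Marks in the 5' UTR have been tied to translation that does not depend on the cap, with heat shock transcripts as the best known case. Antibodies against m6A also bind m6Am, the related mark on a cap-adjacent adenosine that Pcif1 places, so a peak at the very start of a transcript can hold either. Mettl5 works with its partner protein Trmt112 on ribosomal RNA and is not known as the writer of marks in messenger RNA.

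The starts of 6 of the 12 strongest regions found in all 4 libraries lay inside the region, and their sequences show which base the annotated transcript begins with. Each line gives 5 bases before the annotated start and 25 from it, in RefSeq sequence of GRCm38.p6 (the assembly known as mm10), with the first transcribed base in capitals.
Arhgef11, chr3:87617554-87617583, plus strand: gaagcGcagcggccgcgacgcggacgccgg
Inhbb, chr1:119422224-119422253, minus strand: acggaGattgtgcggcttttttacccctcg
Tle1, chr4:72200869-72200898, minus strand: tcgggCggggtgctggtttgctagcgagtg
Zfp553, chr7:127233056-127233085, plus strand: ttcctGggctccttcctggttgtcccgcgc
Twnk, chr19:45006553-45006582, plus strand: agaaaGgagagtggtgacgcgaagctgggg
Syncrip, chr9:88482373-88482402, minus strand: gcaggGaaggaaggacgaaggctgagagga
Slx4, chr16:4001654-4001683, minus strand: cacagAtataaaattagatgaacctacgcc
Brd2, chr17:34119876-34119905, minus strand: ttcagAttctccactgcggcggcctcgcag
The first 6 starts are G or C, and none is an adenosine, the base that carries m6Am. Slx4 and Brd2, 2 shared regions of many exon blocks, are shown because their annotated starts are adenosines. Both regions extend upstream of these starts, from 4001678 to 4003620 in Slx4 and from 34119900 to 34120372 in Brd2. These adenosines therefore need not lie next to a cap. The regions of Tle1 and Syncrip also extend upstream of the starts shown. RefSeq starts are not measured cap sites, and true starts can lie elsewhere.

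The letters GGAC, the core of the strongest DRACH words, occurred in the first 50 transcribed bases of several strong regions. The windows below are shown because their GGAC (in capitals) lay inside the peak, in all 4 libraries for Syncrip and Ep300 and in 3 for Arhgef11. The regions of Syncrip and Ep300 also extend upstream of the annotated starts from which these bases are counted. A DRACH word needs A, C or T after the AC. In the Arhgef11 window and the first Syncrip window a G follows, so their GGAC is not part of a DRACH word.
Arhgef11, chr3:87617565-87617589, plus strand: gccgcgacgcGGACgccgggagcgg
Syncrip, chr9:88482373-88482397, minus strand: gaaggaaGGACgaaggctgagagga
Syncrip, chr9:88482361-88482385, minus strand: aaggctgagaGGACagggcggctag
Ep300, chr15:81586214-81586238, plus strand: gaaggaggaGGACagcgccgaggag
Over all annotated starts, GGAC was listed at a higher share of those inside a 5' UTR peak than of the comparison sets, while the longer word GGACT was not. The share of starts inside a 5' UTR peak with an adenosine was below that of all protein-coding genes. It was above that of genes with a peak and of starts inside a coding sequence peak. RefSeq start sequences were matched for 896 starts in 698 genes with a 5' UTR peak, and 204 of these starts (192 genes) lay inside such a peak. GGAC, searched on the strand of the RNA, was present in the first 50 bases of 58 of the 204 starts (28.4%) and of 27 of the 83 starts in regions of all 4 libraries (32.5%). Among all 8631 starts of protein-coding genes with any peak it was present in 20.6%, and among all 21263 starts of protein-coding genes in 19.97%; among 101 starts inside a coding sequence peak and no 5' UTR peak it was present in 19.8%. The reverse complement GTCC was present in 22.1% of the 204 starts, 16.9% of the 83, 20.3% of the starts of genes with a peak and 18.8% of all protein-coding starts. The wider DRACH words (A, G or T, then A or G, then AC, then A, C or T; they overlap GGAC) were present in 45.6%, 48.2%, 42.6% and 50.4% in that order. GGACT was present in 5.39%, 7.23% (6 of 83), 5.32% and 5.86% in that order, and in 6.93% of the 101 starts inside a coding sequence peak. An adenosine stood at 31.9% of the starts inside a 5' UTR peak, 28.9% of those in regions of all 4 libraries and 29.0% of all starts of genes with a peak, and 37.4% of all protein-coding starts. The BCA context of m6Am (C, G or T, then C, then the starting A) was found at 17.2%, 16.9%, 17.4% and 19.4% in that order. Among the 101 starts inside a coding sequence peak and no 5' UTR peak the shares were lower, with an adenosine at 16.8% and BCA at 11.9%. These shares describe the annotation, and no test was run on them.

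The number of 5' UTR peaks did not separate the genotypes. Wild type 1 and 2 held 543 and 539 such peaks, and knockout 1 and 2 held 622 and 468, so 1 knockout library was above and the other below the wild-type pair. As a share of their lists these were 4.64%, 4.81%, 4.90% and 4.32%, with 95% Wilson intervals (counting error only) that all overlapped, from 4.28 to 5.04 in wild type 1 and from 3.96 to 4.72 in knockout 2. The mean share was 4.73% ± 0.12 (SD, n = 2) in wild type and 4.61% ± 0.405 (SD, n = 2) in the knockout. The difference of -0.116 percentage points was smaller than the spread of the knockout pair (two-sided exact permutation test, p = 1, where 2 against 2 libraries can give no less than 0.33), and it was 0.171 without knockout 2. Nearly all members were peaks of protein-coding genes; 1, 1, 2 and 1 peaks of the 4 lists belonged to genes of miRNA biotype. The start codon class held 0, 1, 2 and 2 of them. An adjusted p-value of 0.05 or more was listed for 5, 4, 14 and 2 of these peaks, most of them in knockout 1, whose list was the longest with 12699 peaks against 10821 to 11696 in the others.

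Peaks in the 5' UTR were weak within their own lists. Strength is given as a percentile, the rank of a peak by p-value among the peaks of the same library, with 100 for the strongest. The median 5' UTR peak stood at 38.9 in wild type 1, 38.1 in wild type 2, 38.4 in knockout 1 and 42.0 in knockout 2, below the middle of each list. It was lower than the median of all other peaks by 11.2 ± 1.85 percentile points (SD over 4 libraries), lower than that of 3' UTR peaks by 9.45 ± 2.17 and lower than that of coding sequence peaks by 17.4 ± 1.65. All 3 differences had the same sign in 4 of 4 libraries, and each gave p = 0.12 in a two-sided exact sign-flip permutation test, the smallest that 4 libraries allow. The authors' fold enrichment told the same: the median fold of a 5' UTR peak was 13.0, 15.2, 12.8 and 15.7 in the 4 lists, or 0.593 times that of the other peaks of its list. Some were strong, with 35, 30, 37 and 31 members in the strongest 10% of their lists, 5.57% to 6.62% of the class. This share was similar for 3' UTR peaks, at 6.52% to 6.95%, and was 15.3% to 15.9% for coding sequence peaks.

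**Figure D1:**
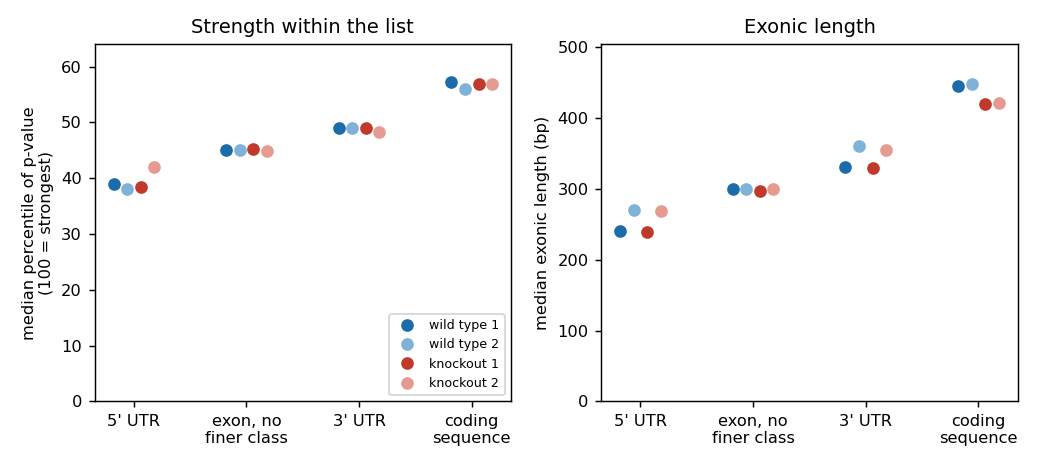
Median strength percentile (left) and median exonic length in bp (right) of peaks by transcript class, 1 point per library, both axes from 0. In every library the 5' UTR has the lowest median strength (38.1 to 42.0) and the shortest median length (239 to 270 bp) of the 4 classes.

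They were also short and mostly confined to 1 exon. The median exonic length was 241, 270, 239 and 269 bp, shorter than that of 3' UTR peaks of the same list by 89.3 ± 2.22 bp (SD over 4 libraries) and shorter in 4 of 4 libraries (exact sign-flip permutation test, p = 0.12). Between 91.5% and 93.4% of 5' UTR peaks lay in a single exon block, and 6.62% to 8.52% crossed a junction, where coding sequence peaks did so in 18.5% to 20.7% of cases and 3' UTR peaks in 4.18% to 4.93%. Among the regions of all 4 libraries, Brd2, a bromodomain reader of acetylated histones, had the most exon blocks with 4, over chr17 positions 34117009 to 34120372, at folds of 194, 314, 293 and 158. Map3k11 and Slx4 followed with 3 blocks in each library, and Hps4 with 3 in wild type 2 and knockout 2 and 2 in the others. The longest by exonic length were Kctd18 (2457 bp in each library), the locus of Ggnbp1 and Zbtb9 (mean 1622.5 bp), Brd2 (mean 1575 bp), the acetyltransferase gene Ep300 (1530 bp) and Mettl18 (mean 1460.5 bp), which encodes a protein histidine methyltransferase that modifies a ribosomal protein. Peaks of this kind overlapped a peak on the opposite strand in 7.48% to 8.84% of cases, against 5.16% to 5.70% of all other peaks pooled and 10.2% to 11.3% of peaks of the exon class. For peaks that overlap in this way the gene is uncertain since no source used here names the libraries as stranded. Of the 917 regions, 16 carried more than 1 gene name and 10 held peaks of both strands.

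The peaks lay close to the annotated gene start, where the class by which they were chosen places them. The distances below therefore describe the class. Between 77.4% and 80.7% of the 5' UTR peaks of a list could be matched to a RefSeq start of their gene. The near end of the peak lay a median of 45.5 bp downstream of the nearest such start in wild type 1, 30 bp in wild type 2, 36.0 bp in knockout 1 and 48.5 bp in knockout 2, and its middle 190, 194, 173 and 194 bp downstream. The start itself was covered by 22.7%, 26.9%, 25.5% and 26.5% of the matched peaks, and 68.5% to 72.5% came within 200 bp of it. For coding sequence peaks 1.55% to 2.03% covered a start. Between 2.99% and 3.87% of the matched 5' UTR peaks lay more than 10 kb from any start in the table, such as Kctd18 and the tyrosine kinase gene Abl1 among the strongest regions; the table does not hold every alternative start.

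**Figure D2:**
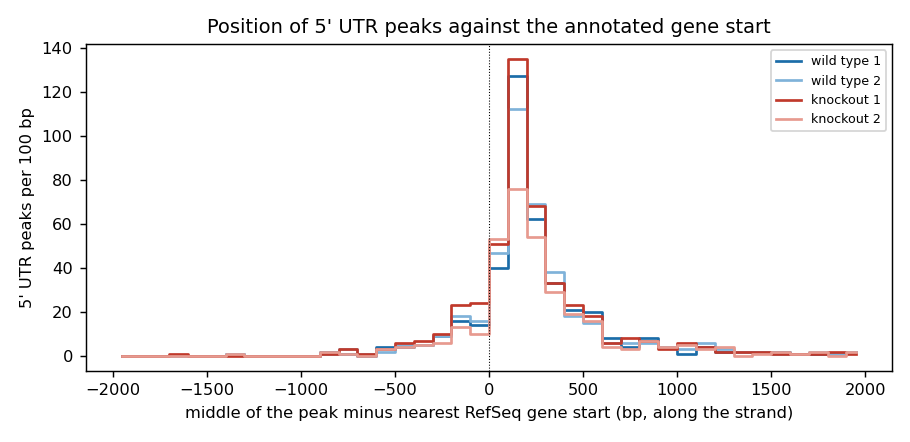
Number of 5' UTR peaks per 100 bp by the distance in bp from the nearest RefSeq gene start to the middle of the peak, positive downstream, 1 line per library; more distant peaks than the axis shows are not drawn. The lines of the 4 libraries rise just downstream of the start, where the medians lie at 173 to 194 bp.

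The regions described here are the strongest of those found in all 4 libraries, so their presence in both genotypes follows from that choice. Of the 5' UTR regions with a mean percentile over 90, 22 had a 5' UTR class peak in all 4 libraries and 20 lacked one in at least 1. In the region of Kctd18, a member of the KCTD family of BTB-domain proteins (chr1, 58013643 to 58018057), the fold was 214 in wild type 1, 148 in wild type 2, 193 in knockout 1 and 142 in knockout 2. It stood at the 97.0th percentile of its list or higher in each library, and the same place also held coding sequence peaks in all 4. Fbf1, which encodes a protein of centrioles and cilia, had folds of 493, 685, 603 and 290 in the same order, with its region 12 bp downstream of the annotated start (chr11, 116167508 to 116168166). Arhgef11, a guanine nucleotide exchange factor (chr3, 87617559 to 87618067), had folds of 91.2, 40.6, 67.5 and 59.4 and stood at percentiles 93.8, 99.1, 94.6 and 99.1. Smad7, the inhibitor of TGF-beta signalling that is itself induced by the pathway, had folds of 125, 90.3, 481 and 65.3. Inhbb, which encodes the beta B subunit of activins and inhibins (chr1, 119421319 to 119422248), had 331, 258, 603 and 292. Tle1, a corepressor that acts with TCF factors, had 745, 117, 164 and 144. All of these stood at or above the 93.0th percentile in each of the 4 lists. Their percentiles overlapped between the genotypes except in Kctd18, where the wild-type values of 99.35 and 99.15 were above the knockout values of 96.98 and 99.08. Except for 96.98, these are ranks shared by all peaks of a list whose p-value has no finite log10. The gap between 99.15 and 99.08 therefore does not measure strength. Shared ranks also gave the values near 99.1 of Arhgef11 and Smad7 in wild type 2 and knockout 2, and of Zfp553 in wild type 2. In their other libraries these genes stood between percentiles 93.0 and 95.2.

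The other members of the strongest 12 were Slmap, Zfp553, Zfyve1, Twnk (the mitochondrial DNA helicase), Abl1 and Syncrip (an RNA-binding protein of the hnRNP family). Strength by p-value and fold parted in 2 of them. Twnk stood between percentiles 94.3 and 96.2 with folds of 12.5, 20.3, 22.2 and 12.6, and Syncrip between 92.6 and 96.2 with folds of 9.49, 7.24, 12.8 and 7.28. Slmap, with folds of 848, 469, 155 and 198, stood at similar percentiles (94.9 to 96.4). The fold is the authors' ratio to a background that the lists do not name, and it is given here as a value of each list, not as a level to compare between them.

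**Figure D3:**
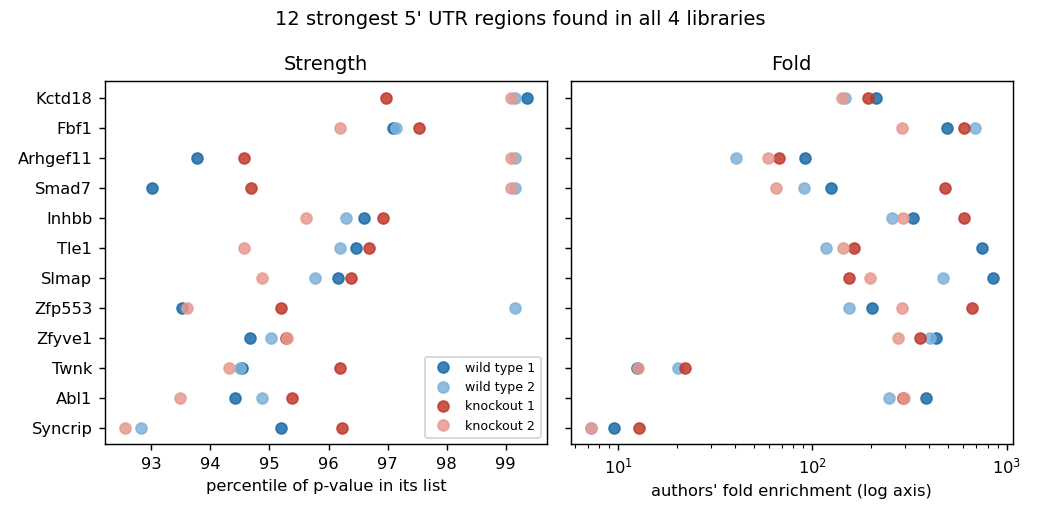
The 12 strongest 5' UTR regions found in all 4 libraries, ordered by mean percentile, with the strength percentile (left) and the authors' fold enrichment on a log axis (right), 1 point per library. All percentiles lie above 92, and folds run from 7.24 in Syncrip to 848 in Slmap. The highest percentiles of Kctd18, Arhgef11, Smad7 and Zfp553 are ranks shared by peaks whose p-value has no finite log10. Percentiles of the genotypes do not overlap in Kctd18, through such shared ranks, and in Zfyve1. With 2 values per genotype this cannot be told from the spread between libraries.

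Most 5' UTR regions were not found in every library. By peaks of the 5' UTR classes, 242 regions (26.4%) were present in all 4 libraries, 136 in 3, 173 in 2 and 366 (39.9%) in 1. Of all 15487 regions joined from peaks of any class, 42.5% were present in all 4 libraries and 28.3% in 1. Part of the gap came from the class: 160 of the 917 regions also held a peak of another class, and for 109 regions the set of libraries grew when peaks of any class counted. The overlapping peaks were of coding sequence (193), exon with no finer class (149) and 3' UTR (16). With any class counted, 307 regions (33.5%) were present in all 4 libraries and 311 (33.9%) in 1. Regions joined in the same way within the coding sequence class were present in all 4 libraries in 34.2% of cases, and within the 3' UTR class in 42.5%. Knockout 1 had the most regions of its own by 5' UTR class, 147, against 92, 69 and 58 in wild type 1, wild type 2 and knockout 2.

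**Figure D4:**
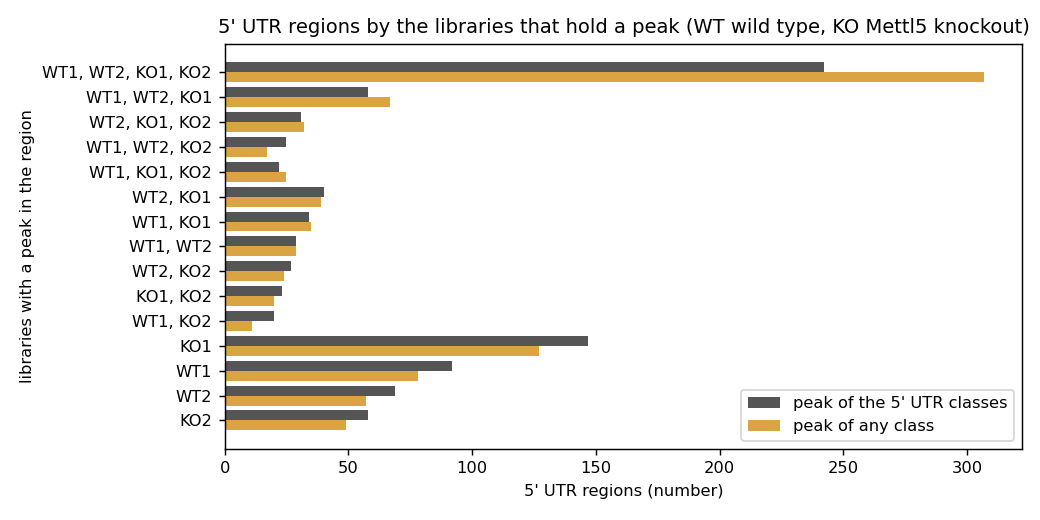
Number of 5' UTR regions by the set of libraries that hold a peak in them, counting peaks of the 5' UTR classes (grey) or of any class (gold). The set of all 4 libraries is the largest (242 and 307), followed by regions of knockout 1 alone (147 and 127); both genotype-following sets are small.

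The class of a region could differ between libraries. Whether the class is that of the listed position is not stated in the sources used here. The position listed for every peak is the middle of its span, and 94.4% of the 5003 peaks with more than 1 exon block have that middle inside one of their blocks. Of 20 regions with a mean percentile over 90 that lacked a 5' UTR class peak in at least 1 library, 10 had a peak of some class in all 4. The region of Skil, a repressor of SMAD signalling (chr3, 31095088 to 31098518), was of the 5' UTR class in both wild-type libraries at folds of 271 and 141 and held exon class peaks in both knockout libraries. Zbed4 (chr15, 88779410 to 88780037) was of the 5' UTR class in both knockout libraries at folds of 264 and 66.5 and held coding sequence peaks in both wild-type libraries. Vegfa, the vascular growth factor gene whose long 5' UTR is known for internal initiation, was of the 5' UTR class in knockout 2 alone at a fold of 369 and held coding sequence peaks in the other 3. These 3 were chosen after their values were seen. In contrast, Trim71, a stem cell factor of the TRIM-NHL family (chr9, 114562335 to 114564369), had a region in knockout 2 alone, at a fold of 174 and percentile 96.4, where no other library held a peak of any class; it too was chosen after its values were seen.

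Peaks in regions of all 4 libraries were the strongest. In wild type 1 the median percentile of 5' UTR peaks was 19.2 in regions of 1 library, 27.9 in regions of 2, 30.3 in regions of 3 and 55.1 in regions of 4. The same step from regions of 1 to regions of 4 libraries was 17.8 to 56.5 in wild type 2, 16.8 to 63.4 in knockout 1 and 34.1 to 48.0 in knockout 2. In knockout 2 the order did not hold throughout, since its peaks in regions of 1 library (34.1) had a higher median than those in regions of 2 (26.0) and 3 (31.0). A counterpart of any class in the other library of the genotype was found for 72.0%, 72.5%, 56.3% and 79.7% of the 5' UTR peaks in the 4 lists, against 78.3%, 81.9%, 68.2% and 83.1% of the other peaks. Among peaks of like strength, a comparison added after the data were seen, 5' UTR peaks minus other peaks gave a mean of -2.28 percentage points below percentile 25 (range over libraries -6.30 to 1.48). The mean was -7.78 from 25 to 50 (-10.01 to -4.14), -3.52 from 50 to 75 (-7.85 to -0.316) and -2.27 above 75 (-5.04 to 1.12). In both middle bands the share was lower for 5' UTR peaks in 4 of 4 libraries. These shares have no test, since each compares 2 lists that also serve as each other's partner.

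**Figure D5:**
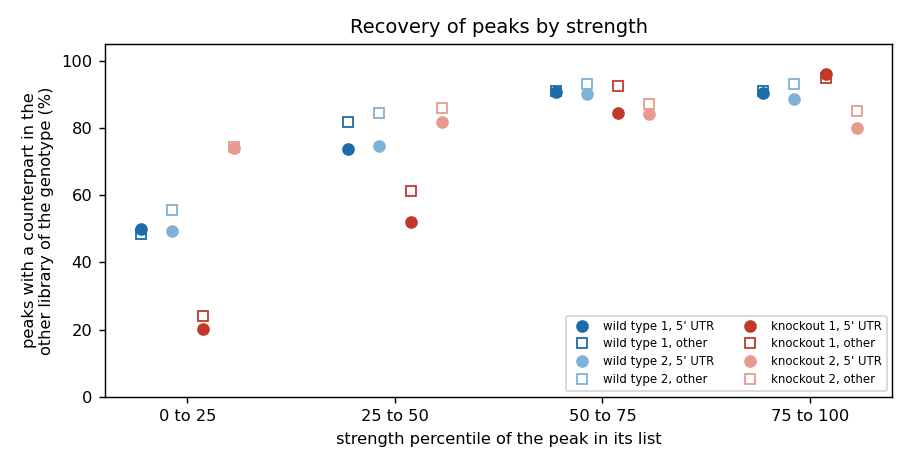
Percent of peaks with a peak of any class at the same place in the other library of the genotype, by band of 25 strength percentiles, for 5' UTR peaks (filled circles) and all other peaks (open squares), 1 pair of points per library. Recovery is lowest in the weakest band of knockout 1 (20.3% of 5' UTR peaks, 24.1% of the others) and lies at 80.0% or more for 5' UTR peaks in the strongest band.

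Few 5' UTR regions followed the genotype. A 5' UTR class peak was present in both wild-type libraries and neither knockout library in 29 regions (3.16%), where the share among all 15487 regions was 2.02%. The reverse held for 23 regions (2.51%), where the share among all regions was 2.51%. When a peak of any class counted, the numbers were 29 and 20 (3.16% and 2.18%). The counts leaned on each single library: without wild type 1, wild type 2, knockout 1 and knockout 2 in turn, 98, 121, 87 and 54 regions were wild-type-only and 45, 54, 81 and 170 knockout-only. By 5' UTR class, pairs of 1 wild-type and 1 knockout library held 20 to 40 regions each that were found in no other library. The genotype pairs together made up 30.1% of the regions of 2 libraries, against 30.2% among all regions. Within the coding sequence class, 2.82% of regions were wild-type-only and 2.70% knockout-only. No test was run on these counts, and a region missing from a list may still carry the mark.

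The wild-type-only regions, taken with peaks of any class, were of low to middling strength, with a median mean percentile of 24.1 and 5 of 29 above 50. The strongest was Tcf19, a gene of a PHD-finger protein linked to proliferation (chr17, 35515889 to 35516513), at folds of 384 and 524 and percentile 84.7 in both wild-type libraries. Qrich1 (chr9, 108517046 to 108517406), a transcriptional regulator of the unfolded protein response, had folds of 41.9 and 35.5 and its annotated start inside the peak. Frmd4b (42.7 and 10.5), Unc50 (8.43 and 14.8), Asxl1 (31.8 and 31.1; a partner of the histone H2A deubiquitinase Bap1), Serp1 (10.8 and 3.21), Cyb5r1 (37.6 and 9.62) and Scaf4 (25.3 and 16.3; an anti-terminator that acts on RNA polymerase II) followed. Of the 25 regions that were wild-type-only by both ways of counting, 16 had another peak of the same gene in at least 1 knockout library. The other 9 were Ddx39b, Ube2g1, Gfra2, Scaf4, Unc50, Serp1, Asxl1, Tcf19 and Cerkl.

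The knockout-only regions, counted the same way, had a median mean percentile of 19.1 and 1 of 20 above 50. That 1 was B3gnt7, an enzyme of glycan synthesis (chr1, 86303342 to 86303731), of the 5' UTR class in knockout 1 at a fold of 16 and of the coding sequence class in knockout 2. Fads2, the delta-6 fatty acid desaturase gene (chr19, 10101355 to 10101503), had folds of 4.74 and 6.08 over its annotated start. Cacng8 (20.8 and 14.9), Smo (12.8 and 14.2; the transducer of Hedgehog signals), Ppp3ca (6.01 and 6.72; the catalytic subunit of calcineurin), Hcfc1r1 (3 and 3.31), Kbtbd2 (6.81 and 13.4) and Stox2 (15.2 and 9.71) followed. Of the 18 regions that were knockout-only by both ways of counting, 14 had another peak of the same gene in at least 1 wild-type library, and Fads2, Creb3, Smc4 and Thra had none.

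The 5' UTR was often the only peak class of its gene in a library, a share that was not taken for the other classes. Of the genes with such a peak, 203 of 516 (39.3%) in wild type 1, 221 of 510 (43.3%) in wild type 2, 246 of 586 (42.0%) in knockout 1 and 175 of 447 (39.1%) in knockout 2 had no peak of another class. A 3' UTR peak was present in 34.5%, 35.1%, 37.5% and 39.1% of the genes with a 5' UTR peak. Of the genes with a peak but none in the 5' UTR, 46.9%, 46.6%, 46.8% and 46.7% had one. Those genes have a peak of some other class by definition, which raises their share. Where a gene had both, its best 3' UTR peak was usually the stronger: the 5' UTR peak ranked higher in 36.0%, 35.2%, 35.5% and 39.4% of such genes, and above the best coding sequence peak in 26.4% to 31.6%. Of the 242 regions in all 4 libraries, 68 (28.1%) belonged to genes with no peak of another class in any list. This count goes by gene name, and 10 of the 68 overlapped a peak of another class listed under another gene name, among them Azin1 in all 4 libraries and Trmt112 in knockout 1. Inhbb, Zfyve1, Syncrip and Mettl18 were among the strongest of these, as was Gsk3b, the kinase that marks beta-catenin for destruction (chr16, 38089241 to 38090589), at folds of 161, 69.9, 128 and 77.2.

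Genes of known pathways were described from 10 lists. Of all 9949 genes with a peak, 883 (8.88%) had a 5' UTR region, and 247 had 5' UTR class peaks in all 4 libraries. These 9949 genes are of every biotype, so the share is not one of protein-coding genes alone. Among genes matched to RefSeq starts, 698 had a 5' UTR peak, beside 6766 protein-coding genes with any peak. Among the m6A and m6Am machinery, 5 of 17 members with a peak had a 5' UTR region, and 1 in all 4 libraries. This was Trmt112, the partner of Mettl5, whose region (chr19, 6909845 to 6910402) had folds of 40.5, 51.6, 190 and 54.2 and percentiles of 67.3, 73.2, 78.6 and 64.2, with the genotypes overlapping. Igf2bp1, an RNA-binding reader protein, had a region in wild type 1 and both knockout libraries at folds of 5.70, 30.8 and 6.54. The m6A reader gene Ythdf3 had one in wild type 1 alone (6.02), and Pcif1, the m6Am writer, one in knockout 1 alone (13.6), as did Rbm15b (7.21), a subunit of the m6A writer complex.

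Stress and translation genes had 5' UTR regions at shares near that of all genes with a peak, from 8.70% to 11.1% in the 3 larger lists. Of 18 integrated stress response and upstream-reading-frame genes with a peak, 2 had one: Azin1, the antizyme inhibitor, in all 4 libraries (folds of 122, 38.5, 134 and 65.7; chr15, 38518937 to 38519266), and Slc35a4 in wild type 1 alone. Atf4, the effector of this response, had coding sequence peaks in all 4 libraries and no 5' UTR class peak. Of 11 heat shock genes with a peak only Hspa1b had a 5' UTR region. It was a weak one in wild type 1 and knockout 2 (folds of 7.95 and 8.96, percentiles 2.94 and 5.68). Hspa1b also had coding sequence peaks, and a peak of either class was present in all 4 libraries. Its neighbour Hspa1a had a peak in all 4, of the coding sequence or 3' UTR class. These 2 genes are near-identical copies, so reads could have been split between them. Of 23 initiation and elongation factors with a peak, Eif4g3 had a region in all 4 libraries (13.0, 18.5, 17.6 and 23.9) and Eif6 in wild type 1 and both knockout libraries (6.09, 14.4 and 7.62). Of 6 ubiquitin and proteasome genes, Psmd1 had one in wild type 1 alone.

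Of 28 chromatin regulators with a peak, 6 had a 5' UTR region, and 3 in all 4 libraries. Ep300 stood out within its lists, with folds of 174, 229, 194 and 160 and percentiles of 92.5, 92.5, 93.4 and 89.4 over chr15 positions 81585381 to 81586910. Brd2 is given above, and Setd1a, a methyltransferase of histone H3, had a weak region (3.98, 14.8, 15.2 and 13.4). Eed, Kmt2d and Kdm5b each had a 5' UTR class peak in 1 library, and the place in Eed held a peak of some class in all 4. Of 20 pluripotency genes with a peak, Tbx3 had a region in all 4 libraries (10.1, 25.2, 64.1 and 12.7), Tdgf1 in knockout 1 alone and Klf5 in wild type 2 alone. Pou5f1, Sox2, Klf4 and Esrrb had peaks of other classes in all 4 libraries and none in the 5' UTR.

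Of 21 genes of FGF, WNT and TGF-beta signalling with a peak, Smad7 and Gsk3b had 5' UTR regions in all 4 libraries and Fgfr1 in wild type 2 alone (fold 199, percentile 87.9). Of 14 genes around Fbxw7, the transcription factor gene Jun had a region in all 4 libraries (44.8, 98.4, 33.6 and 53.0; chr4, 95051179 to 95051686) and Klf5 the one named above; Fbxw7 and Myc had none. Of 20 developmental transcription factors, Sox1, a neural factor, had a region in both wild-type libraries and knockout 1 (11.6, 43.6 and 13.6). In all, the 10 lists counted 26 members with a 5' UTR region, 10 of them in all 4 libraries, where a gene on 2 lists counts under both. Over all 9949 genes with a peak these counts were 883 and, by gene, 247.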

How the data were processed

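MeRIP-seq data of 4 libraries were used, grouped by the genotype in the labels. Each library has its own list deposited by the authors, with peaks that differ between lists, and no pooled list was used. Per the file headers each peak has a p-value, its log10 and the log10 of its adjusted p-value (read here as a score, since some have no finite value), a fold enrichment, exon blocks, a gene and a class. What the deposited fold, a ratio, was taken against is not named. HISAT2, HOMER and mm10 are named in the submitters' processing notes without a role; the peak caller is not given in the sources used here. Read depth is unknown here.

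Other sequences than the chromosomes held 3, 5, 6 and 3 further peaks, which were not used. A 5' UTR region was present in a library by a peak of the 5' UTR or start codon class, or, where said, by an overlapping peak of any class. Ties in strength shared their mean rank. Genes were matched to RefSeq starts (GRCm38.p6) by symbol or an unambiguous synonym. The members and gene lists were chosen with earlier results of these data known. Genes named: 11 set genes; the 12 strongest regions of all libraries; the 8 strongest wild-type-only and 8 knockout-only by any class, predicted genes left out; up to 4 members per list; and the 5 longest regions and the 5 with most blocks. The joining and the sign-flip test were checked on simulated lists. Alternatives were other joining rules, shorter lists, presence by any class, genes for regions and leaving out each library. Python 3.11.15, numpy 2.4.6, pandas 2.3.3, scipy 1.17.1 and matplotlib 3.10.9 were used.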

Additional observations from a re-analysis of the deposited data

How the results depend on the processing

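The weaker p-value, lower fold and shorter length of 5' UTR peaks kept their direction under every alternative tried, leaving out each library included. The stronger 50% of each list left 113 regions in all 4 libraries, 11 wild-type-only and 3 knockout-only; these counts fall with the number of peaks kept. Lists of equal length left 15 knockout-only regions. Leaving out each library in turn gave 54 to 121 wild-type-only and 45 to 170 knockout-only regions, since a genotype was then judged from 1 list, and 264 to 300 regions in all remaining libraries. The genotype difference in share ran from -0.402 to 0.171 and turned positive without knockout 2 (0.171); the cause was not tested. The median distance to the start, averaged over the 4 libraries, was 188 bp by the middle of the peak, against 40 by its near end. Of the list members 10 had a region of all 4 libraries, against 26 with any. The start-sequence alternative planned for genes with a region in all libraries was run on starts inside such regions instead (28.9% adenosine, against 29.02%). No paired analysis was possible because the wild-type labels carry no replicate numbers and no fitted model was used. Depth is unknown here, so which regions were missed for lack of reads cannot be set.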
